A study of Mus musculus with 36 samples.

Results

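The window described here is the 1600 kb of mouse chromosome 8 from 91000000 to 92600000 (build mm9) that holds the gene Sall1, near 91.55 Mb, and the sequence on both sides of it. Its members are all peaks of histone H3 acetylated at lysine 27 (H3K27ac) that overlap the window. They were chosen by position alone, and there are 685 of them among 732259 peaks in the 18 deposited lists. The peaks merged into 57 regions, where a region is any stretch that peaks of 2 or more libraries share, among 63594 regions of the genome.

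Each library was H3K27ac ChIP-seq of pooled forelimbs of untreated FVB embryos at embryonic day 11.5. There were 2 libraries of hs72 KO embryos, 4 of mm1179 KO, 2 each of hs1262 KO, hs1467 KO, hs1586 KO and hs1603 KO, and 4 of wild-type (WT) embryos. Each KO line lacks 1 limb enhancer and is otherwise of the same strain and stage as WT. The tissue is the whole forelimb, so fewer cells with the mark and less mark per cell cannot be told apart. The labels do not say that libraries of 1 genotype came from separate litters, so a p-value measures only the spread between libraries, which may be technical. The lists hold no gene names, so the tissue was not checked against marker genes.

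Sall1 encodes a zinc finger transcription factor of the spalt family, expressed in the distal mesenchyme of the early limb bud, where it acts together with its relatives. Mutations of the human gene cause Townes-Brocks syndrome, which affects thumbs, ears, anus and kidneys. H3K27ac is laid down by the acetyltransferases CBP and p300 and marks active promoters and enhancers. The hs and mm numbers name elements of the VISTA collection, which were tested for enhancer activity in transgenic mouse embryos.

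In RefSeq's mouse annotation (GRCm38.p6) the protein-coding genes before Sall1 on chromosome 8 run Nkd1, Snx20, Nod2 and Cyld, and the next one after it is Tox3. Nkd1 encodes an inhibitor of Wnt signalling, Snx20 a sorting nexin, Nod2 a sensor of bacterial peptidoglycan, Cyld a deubiquitinase and Tox3 an HMG-box protein. That annotation is of another build than the lists, so only the order of the genes was taken from it, and peaks were not assigned to genes. RefSeq holds 3 Sall1 promoters. The 250 bases before the outermost start, on the minus strand at chr8:89044163-89044412 (GRCm38.p6), are shown because the strongest H3K27ac of the window lies near the position given for the gene. Capitals mark the only match to the motifs searched.

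Sall1 outermost promoter: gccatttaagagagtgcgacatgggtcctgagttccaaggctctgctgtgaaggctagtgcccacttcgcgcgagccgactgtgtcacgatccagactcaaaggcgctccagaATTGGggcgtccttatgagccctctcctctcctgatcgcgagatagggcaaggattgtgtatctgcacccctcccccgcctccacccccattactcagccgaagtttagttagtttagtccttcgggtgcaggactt

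The capitals are a CCAAT box (CCAAT) read on the opposite strand, which 33.8% of 32851 promoters of this length hold on either strand. No TATA box (TATAAA, in 12.4% of promoters) and no GLI site (GACCACCCA, in 0.225%) matched in any of the 3 Sall1 promoters. The GC box (GGGCGG, in 32.7%) had 0 matches before the outermost start, 4 before the middle one and 1 before the innermost one. The 3 promoters were 56.4%, 74.4% and 78.4% G and C, against a median of 52.4% over all promoters. They held 13, 25 and 30 CpG dinucleotides, against a median of 6. A match is a description of the letters and not of bound protein.

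Of the whole series, the following bears on the window. The lists held 26550 to 58753 peaks, and read depth is unknown, because they give positions and scores but no counts. The list names carry 4 tags, which the labels do not explain and which are called tags 1 to 4 here. Tag 1 joins mm1179 KO and WT replicates 1 and 2, and tag 2 joins both hs72 KO libraries with mm1179 KO and WT replicates 3 and 4. Tag 3 holds replicate 1 and tag 4 replicate 2 of hs1262 KO, hs1467 KO, hs1586 KO and hs1603 KO, with no WT library. Tag and genotype therefore cannot be told apart where these lines are set against WT. Lists covered 62.6 to 86.0 Mb of the genome in tag 1, 81.4 to 115.3 Mb in tag 2, 89.6 to 93.6 Mb in tag 3 and 140.9 to 166.0 Mb in tag 4.

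The window held 57 regions, among them the broad domain described below. For regions and peaks, before and after mean lower and higher coordinates, and not the direction of transcription, which for Sall1 is on the minus strand. The part before the gene (91000000 to 91499999) had 16 regions and the 100 kb around it (91500000 to 91600000) had 5. The desert after it (91600001 to 92600000) had 36. Between them lay long stretches without a region, the longest of 247.4 kb from 92312277 to 92559693, in which 247.1 kb had no peak in any library. The next was 219.0 kb from 91221930 to 91440945, before the gene. Of the 57 regions, 13 were called in all 18 libraries, or 22.8%, against 16.5% of all regions of the genome. These comprised 3 before the gene, 10 after it and none in the 100 kb around it. Of the others, 5 of the 57 were called in tag 4 libraries only, a rule that 7.66% of all regions met, which is near the window's share.

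**Figure D1:**
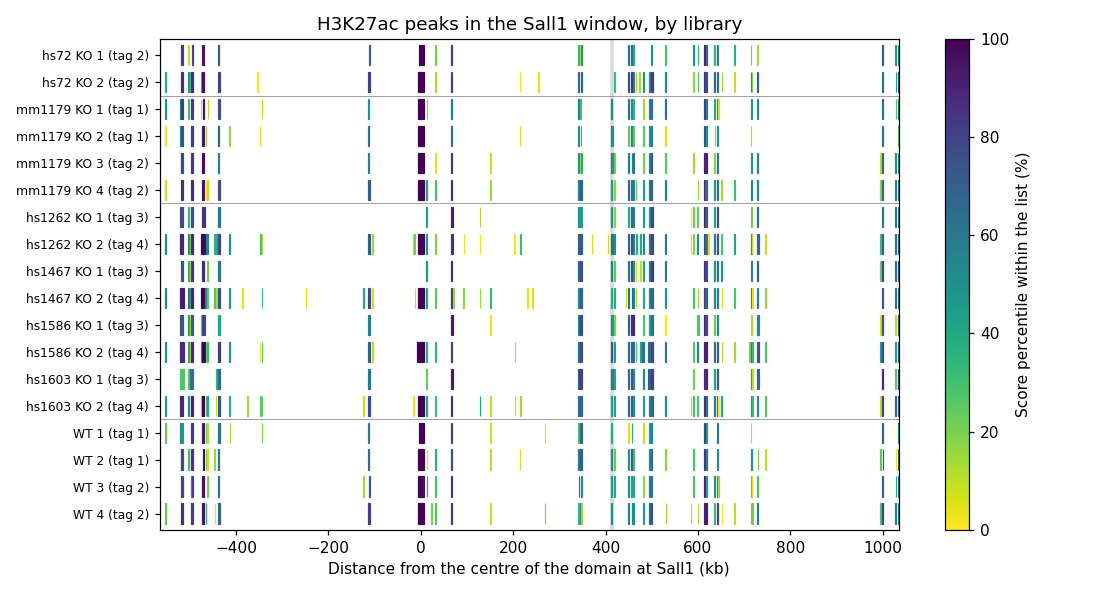
Peaks of each library along the window (horizontal axis, kb from the centre of the broad domain at Sall1; rows are libraries, with the tag of their list). Colour is the score percentile within the library's own list, and the grey band marks the region from 91977318 to 91980472, which has a peak in every library but the 2 of hs72 KO.

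The broad domain lay from 91558101 to 91572122, 14022 bp wide and the widest region of the window, with its centre 15.1 kb after the position given for Sall1. The authors' score of a peak is its own value and was read only within its list, as a percentile, the share of the list's peaks that score no higher. By this measure the domain led the window in hs72 KO, mm1179 KO and WT, with percentiles of 99.896 and 99.862 in hs72 KO and a mean of 99.5 ± 0.69 in WT (SD, n = 4). In tag 4 lists the region from 91088465 to 91097157 stood level with it in 3 and above it in hs1467 KO replicate 2, at 99.878 against 99.692 for the domain. Each hs72 KO library had it as 1 peak, of 11414 bp in replicate 1 and 12914 bp in replicate 2.

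In mm1179 KO the domain was 1 peak in each of the 4 libraries, of 12776, 11866, 13193 and 13828 bp. In WT it was 1 peak of 11614 bp in replicate 1, of 13053 bp in replicate 2 and of 13366 bp in replicate 4, and 2 peaks in replicate 3, the wider of 7796 bp. The hs72 KO peaks overlap the WT peaks in width. Peaks covered 12164 ± 1061 bp of the domain in hs72 KO (SD, n = 2), 12916 ± 823 bp in mm1179 KO (SD, n = 4) and 12659 ± 764 bp in WT (SD, n = 4). In 13 libraries the domain's score was the same 3100, and in WT replicate 3 it was 2653, so the score does not order the libraries.

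The 4 tag 3 libraries had no peak in this domain, although it was called in the 14 others at percentiles of 98.5 to 99.9. Replicate 1 of hs1262 KO, hs1467 KO and hs1603 KO had their nearest peaks after it 4.69, 4.98 and 5.39 kb away, and replicate 1 of hs1586 KO 58.8 kb away. Replicate 2 of the same 4 lines covered 14022, 13880, 13939 and 13276 bp of it. Over the genome, 4468 regions were called in all 14 other libraries and in none of tag 3, or 7.03% of the 63594, and the Sall1 domain was the only such region in the window. The tag 3 lists were among the shortest, with 26550 to 32472 peaks, and the part of list processing or depth in this was not tested.

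**Figure D2:**
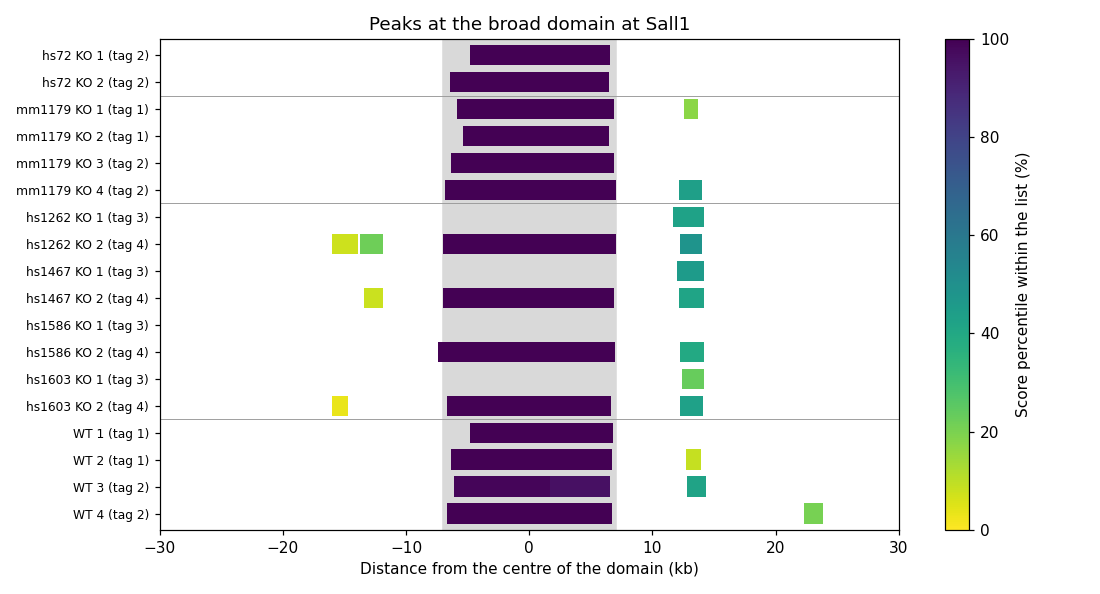
Peaks within 30 kb of the centre of the Sall1 domain (horizontal axis, kb; rows are libraries), coloured by score percentile, with the domain in grey. The domain is a single peak in 13 libraries, 2 adjoining peaks in WT replicate 3, and has no peak in the 4 tag 3 libraries.

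The other regions of the 100 kb around Sall1 were narrower, of 1305 to 2209 bp, and none exceeded a percentile of 48.4. The region from 91577103 to 91579311 was called in 11 libraries and that from 91596192 to 91597809 in 11. The first had no peak in hs72 KO, and peaks in mm1179 KO replicates 1 and 4 and in WT replicates 2 and 3. The second was called in both hs72 KO libraries, at percentiles of 20.3 and 12.2, in mm1179 KO replicates 3 and 4, and in WT replicates 2, 3 and 4. Both remaining regions, at 91549093 and 91551707, were called in 2 tag 4 libraries each.

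Before the gene, 5 regions were called in at least 16 libraries. The strongest ran from 91088465 to 91097157, 457 kb before the position given for Sall1, and stood second in the window by WT percentile. Its percentile was 95.1 and 96.8 in hs72 KO, 94.4 to 96.0 in mm1179 KO and 94.1 to 96.2 in WT. It was called in 17 libraries, and the one without it was hs1603 KO replicate 1, of tag 3. The regions from 91043810 to 91051499 and from 91065551 to 91072197 were called in all 18, with median percentiles of 80.0 and 83.3 over the libraries, as was that from 91126470 to 91130189, with a median of 68.5.

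Of these 5, the one nearest to the gene, from 91451626 to 91454451, was called in 16 libraries, among them both of hs72 KO at percentiles of 68.2 and 80.9. In mm1179 KO its percentile was 48.6, 64.7, 56.2 and 70.6, and in WT 58.4, 65.7, 73.0 and 82.6. The 2 libraries without it were hs1262 KO and hs1467 KO replicate 1, both of tag 3. The hs72 KO values lie within those of WT.

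After the gene, in the desert, 10 regions were called in all 18 libraries. The nearest, from 91630694 to 91633880, had a percentile of 80.9 and 81.5 in hs72 KO, 56.4, 63.0, 84.1 and 86.0 in mm1179 KO, and 79.9, 75.1, 84.4 and 82.9 in WT. The lower mm1179 KO values are those of tag 1. The strongest of the desert, from 92177808 to 92184780, 631 kb after the position given for Sall1, had a percentile of 89.5 and 88.0 in hs72 KO and of 82.6, 85.3, 91.05 and 92.1 in WT. In 14 of the 18 libraries it was split into 2 peaks. The second widest region of the window, from 91905387 to 91914242, held 1 to 3 peaks per library and reached percentiles of 49.3 and 67.8 in hs72 KO and of 57.6 to 68.6 in WT.

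The other 7 had lower medians than the strongest region of the desert. The regions from 92013289, 92021011 and 92063358 had median percentiles of 60.7, 67.4 and 68.7 over the 18 libraries, and those from 92205681, 92279256, 92564171 and 92598283 had 59.1, 47.5, 70.8 and 59.0. The last crosses the border of the window at 92600000. Just outside, the next region after the window, from 92763514 to 92765049, was called in 6 libraries at a mean percentile of 8.5 in hs72 KO and 1.5 in WT, where a library without a peak counts as 0. The last one before it, from 90976000 to 90980271, was called in 14, at 80.9 in hs72 KO and 86.8 in WT.

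Exactly 1 region of the window was called in all 4 WT libraries and in neither of the 2 hs72 KO libraries. It lay from 91977318 to 91980472, 3155 bp wide, 429 kb after the position given for Sall1 and 413.8 kb from the centre of the broad domain. All 16 libraries without the hs72 deletion had a single peak there. The search among 500 bp tiles, counted as called when peaks cover at least 250 bp, gave 3 adjoining tiles from 91978001 to 91979500 that were called in all 16 and in no hs72 KO library. The lists and labels used here do not give the position of the hs72 deletion. Sequence that is deleted gives no reads whatever its acetylation, and a gap in the peaks alone cannot be told apart from a loss of the mark on DNA that is present.

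In mm1179 KO the peak was 2166, 2308, 2664 and 2071 bp wide, at percentiles of 51.8, 51.3, 52.4 and 45.3. In WT it was 1582, 1994, 1776 and 1968 bp wide, at percentiles of 35.9, 52.0, 46.4 and 48.5. The mm1179 KO peaks were thus all wider than the WT ones. So were those of the 8 libraries of the other lines, of 2131 to 3138 bp. Peaks of whole lists were also wider there, with medians of 2150 to 2789.5 bp in tags 3 and 4 against 1749 to 1910 bp in WT. In mm1179 KO the whole-list medians were 1839, 1728, 2139 and 2104 bp, above all of WT in replicates 3 and 4 only. In the 8 libraries of the other lines the percentile was 48.3 and 64.3 in hs1262 KO, 57.1 and 37.9 in hs1467 KO, 50.9 and 74.2 in hs1586 KO and 58.9 and 44.1 in hs1603 KO. Over all 16 the median was 51.1, the middle of the lists, with scores from 84.2 to 638 where the lowest score in the lists is 40.

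The nearest peaks of hs72 KO before the region ended at 91913499 and 91914044, 63.8 and 63.3 kb away, where the WT libraries had theirs at 63.3 to 63.8 kb. After the region, hs72 KO replicate 2 had a peak from 91983130 to 91984917, 2.66 kb away, at a percentile of 31.8. Replicate 1 had its next peak 33.2 kb away. That neighbouring region was called in 13 of the 18 libraries, among them mm1179 KO replicates 3 and 4 and WT replicates 2 and 3, so its absence in hs72 KO replicate 1 was shared with WT replicates 1 and 4.

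**Figure D3:**
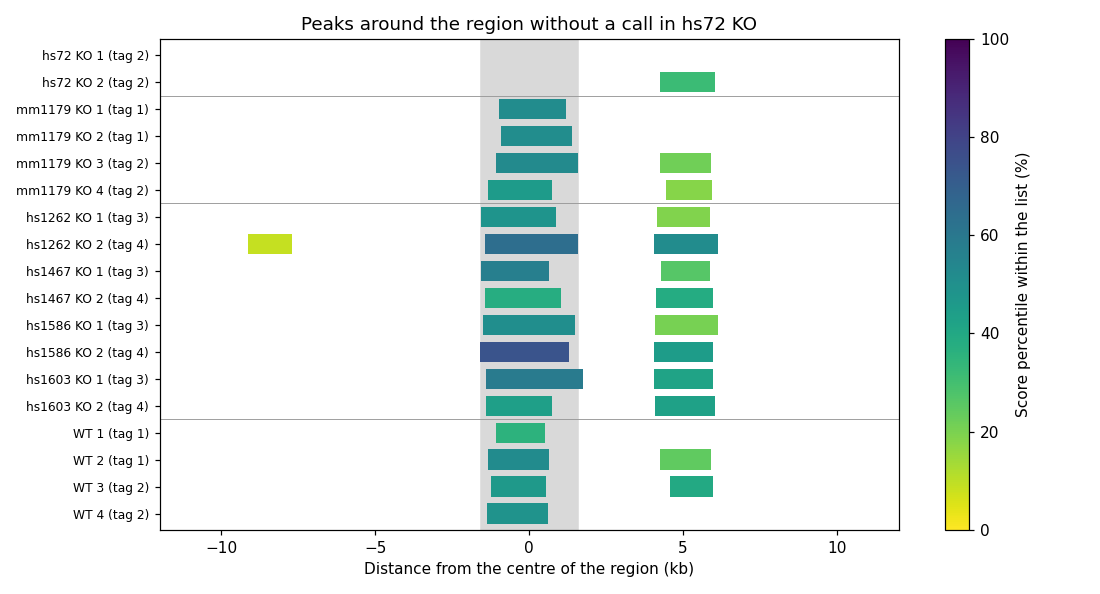
Peaks within 12 kb of the region without a call in hs72 KO (horizontal axis, kb from its centre; rows are libraries), coloured by score percentile, with the region in grey. A peak of 1582 to 3138 bp stands in the grey band in 16 libraries and in neither hs72 KO library, of which replicate 2 keeps the peak to the right.

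Set against the genome, the pattern was rare but not confined to the window. Of 53395 regions called in any hs72 KO or WT library, 157 were called in all 4 WT and in no hs72 KO library, or 0.294%, and the window had 1 of its 48. Without WT replicate 3 the window had 3, and without WT replicate 4 or hs72 KO replicate 2 it had 2. Called in both hs72 KO and in no WT library were 658, or 1.23%, and none in the window, where leaving out hs72 KO replicate 1 or WT replicate 4 gave 2 and WT replicate 2 gave 1. When all 16 other libraries had to call a region, a rule added after the data were seen, 10 of 63594 regions remained, or 0.0157%. Among these 10, the region of the window ranked 3 by mean percentile, at 51.2, and its lowest percentile over the 16 libraries, 35.9, was the highest of the 10, the next being 19.2. Lost tiles numbered 42 of 435806 over the genome, or 0.00964%, with 3 in the window, and tiles called only in hs72 KO numbered 82, or 0.0188%, with none in the window. Without hs72 KO replicate 2 the window had 7 lost tiles, and without replicate 1 it had 9 called only in hs72 KO.

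The same search in the other lines gave no region of the window, but the rule was not equally strict for all lines. For hs72 KO it asks for a miss in 2 libraries of the same tag. For mm1179 KO it asks for a miss in 4 libraries of tags 1 and 2. For each other line it asks for a miss in tag 3 and in a long list of tag 4. The counts of the lines are thus not comparable. Regions called in all libraries outside a line and in none of it numbered 0 for mm1179 KO, hs1262 KO and hs1586 KO (0% each) and 1 each for hs1467 KO and hs1603 KO (0.00157% each), over the genome. Between mm1179 KO and WT, 42 regions of 54583 were called in all 4 WT libraries only (0.0769%) and 19 in all 4 mm1179 KO libraries only (0.0348%), none of them in the window. In Fisher's exact test per region with Benjamini-Hochberg adjustment, no region of the genome passed between hs72 KO and WT, and none had an unadjusted p under 0.05, since 2 against 4 libraries can give no p below 0.0667. Between mm1179 KO and WT 61 had an unadjusted p under 0.05 and none passed. Against all 16 libraries, also added after the data were seen, 213 regions had an unadjusted p under 0.05 and none passed, with 1 of the 213 in the window. That region was known as a gap from earlier work on these lists, so its p is not independent evidence.

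The 2 hs72 KO libraries were also compared with each other over all 57 regions. Both called 25 of the 57, or 43.9%, which is near the 46.9% of all regions of the genome. Neither called 23 of the 57, against 31.1% of all regions. The other 9 of the 57 were all called in replicate 2 and not in replicate 1, a share near the 14.4% of all regions. None was called in replicate 1 alone, against 7.64%. Replicate 1 called 25 regions and replicate 2 called 34, against 29, 26, 28 and 35 in mm1179 KO and 26, 33, 30 and 35 in WT. Of the 18 regions that all 4 WT libraries called, replicate 1 of hs72 KO called 16 and replicate 2 called 17, against 95.7% and 97.9% of such regions over the genome. Both hs72 KO libraries called 16 of the 18, against 94.3% over the genome, and all 4 mm1179 KO libraries called 18, against 84.1%. The second region that replicate 1 lacked ran from 92057907 to 92061421 and was called in every other library, at a percentile of 56.8 in hs72 KO replicate 2 and of 44.7 to 67.2 in WT. The 10 strongest regions of WT are among the 18 that all 4 WT libraries called. Both hs72 KO libraries called all 10, which is near the 94.3% of such regions over the genome. Of these 10, 7 were called in all 18 libraries. No share over the genome was computed for regions chosen by their strength.

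The number of peaks and the length they covered in the window did not separate hs72 KO from WT. The hs72 KO libraries had 29 and 42 peaks, and the WT libraries 30, 37, 36 and 39. The means were 35.5 ± 9.2 in hs72 KO (SD, n = 2) and 35.5 ± 3.9 in WT (SD, n = 4). Peaks covered 70.7 and 106.7 kb in hs72 KO and 65.1, 83.55, 77.6 and 93.8 kb in WT. The hs72 KO values lie on both sides of the middle of WT, with replicate 2 above all 4. The mean difference of hs72 KO minus WT was 8.69 kb, for which an exact permutation test of 15 arrangements, two-sided, gave p = 0.533. Without hs72 KO replicate 2 it was -9.30 kb.

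Because the lists differ in total covered length, the window was also given as a share of all covered bases. That share was 0.0797% and 0.101% in hs72 KO, 0.103%, 0.107%, 0.0896% and 0.0881% in mm1179 KO, and 0.0858%, 0.0971%, 0.0954% and 0.0922% in WT. Replicate 1 of hs72 KO had the lowest share of the 18 libraries. The difference of hs72 KO minus WT was -0.0022 percentage points, with an exact two-sided permutation p of 0.867, and 0.0085 without hs72 KO replicate 1. Tag 4 libraries covered 130.9 to 160.3 kb of the window, and tag 3 libraries 86.0 to 96.3 kb, while their shares, 0.0920% to 0.0966% and 0.0919% to 0.1075%, overlapped those of tags 1 and 2.

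**Figure D4:**
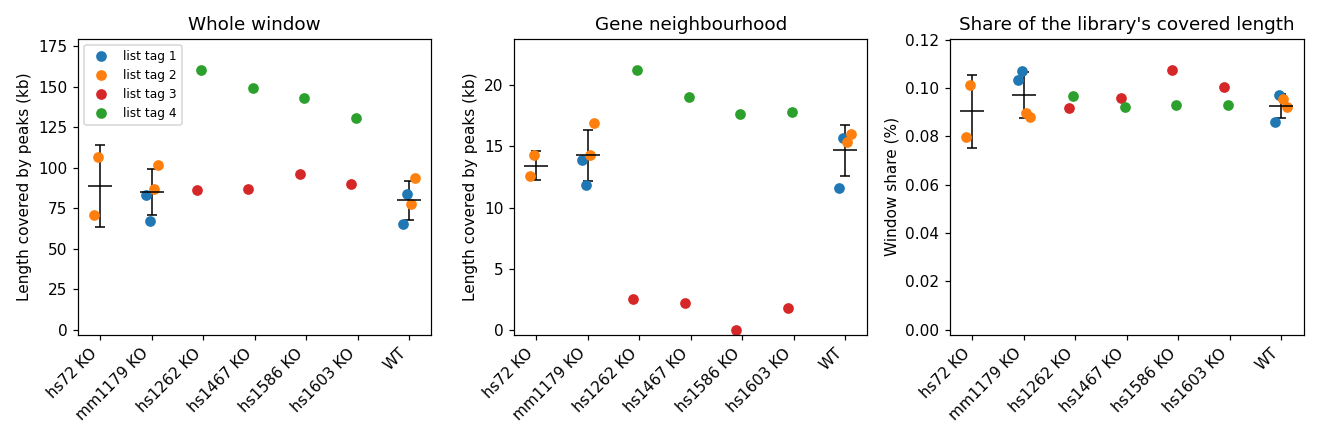
Length covered by peaks in the whole window (left, kb) and in the 100 kb around Sall1 (middle, kb), and the window's share of all covered bases (right, %), by genotype. Points are libraries coloured by list tag, bars are mean and SD for hs72 KO (n = 2), mm1179 KO (n = 4) and WT (n = 4), and the 4 tag 3 libraries lie between 0 and 2.49 kb in the middle panel.

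In the 100 kb around the gene, peaks covered 12.6 and 14.3 kb in hs72 KO, 13.9, 11.9, 14.3 and 16.9 kb in mm1179 KO, and 11.6, 15.7, 15.3 and 16.03 kb in WT. The difference of hs72 KO minus WT was -1.23 kb (exact two-sided permutation p = 0.467). Against the 4 tag 2 libraries of mm1179 KO and WT, which covered 15.7 ± 1.1 kb (SD, n = 4), hs72 KO covered 13.4 ± 1.2 kb (SD, n = 2), a difference of -2.22 kb (exact two-sided permutation p = 0.133). The groups lay 34 bp apart at their nearest values, and against all 4 WT libraries the hs72 KO values overlapped. In the desert, hs72 KO covered 39.7 and 63.3 kb and WT 28.95, 45.4, 41.1 and 56.2 kb, a difference of 8.58 kb (exact two-sided permutation p = 0.467), which was -3.27 kb without hs72 KO replicate 2. Within tag 2, hs72 KO covered 2.98 kb more of the window than WT on average (exact two-sided permutation p = 1, n = 2 each), and the difference in the 100 kb around the gene was -2.24 kb (exact two-sided permutation p = 0.333, the smallest that 2 against 2 libraries allow).

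In mm1179 KO, a line whose deletion is of another enhancer, peaks covered 84.8 ± 14.2 kb of the window against 80.0 ± 12.01 kb in WT (SD, n = 4 each; exact two-sided permutation p = 0.629). The difference of 4.77 kb was -0.841 kb without mm1179 KO replicate 4 and -0.218 kb without WT replicate 1. Its window held 33.5 ± 3.4 peaks against 35.5 ± 3.9 in WT (SD, n = 4 each; exact two-sided permutation p = 0.486). The share of covered bases in mm1179 KO minus WT was 0.0137 percentage points within tag 1 and -0.005 within tag 2 (exact two-sided permutation p = 0.333 in both, n = 2 each, the smallest possible, with no overlap of the groups in either tag). The 15 tests of this kind all had an adjusted p of 1 (Benjamini-Hochberg). With 2 hs72 KO libraries the smallest possible p is 0.0667 against 4 libraries and 0.333 against 2, so no hs72 KO comparison could have passed the threshold of 0.05, and a p above it does not show that the groups were alike.

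The median width of the window's peaks ranged from 1641.5 to 2908.5 bp over the 18 libraries, and that of all peaks from 1728 to 2789.5 bp. It was 2010 and 2261 bp in hs72 KO, against 1868 and 2011 bp over the whole lists. In mm1179 KO it was 2062.5, 1896, 2084 and 2378.5 bp in the window and 1839, 1728, 2139 and 2104 bp over the lists. In WT it was 1641.5, 1871, 1781.5 and 1884 bp in the window and 1764, 1910, 1749 and 1894 bp over the lists. Window medians above those of all WT libraries were thus found in both KO lines. The median score percentile of the window's peaks was 48.8 and 55.5 in hs72 KO and 46.2 to 48.6 in WT. It was 51.4, 47.7, 52.7 and 55.9 in mm1179 KO, and it ranged from 41.7 to 61.5 over all 18 libraries. Only 0 to 4 peaks of the window per library reached a percentile of 90.

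The overlap of lists within the window was higher on average within a tag than within a genotype. The Jaccard index, the share of bases covered in both of 2 lists among those covered in either, was 0.601 between the 2 hs72 KO libraries and 0.606 between the 2 WT libraries of tag 2. Between hs72 KO and those WT libraries it was 0.578 to 0.638 (4 pairs). It averaged 0.610 over the 17 pairs within a genotype and 0.560 over the 136 pairs across genotypes. By tag, it averaged 0.665 over the 33 pairs that share one and 0.538 over the 120 pairs that do not. These averages share libraries and were not tested. The only pair within hs1262 KO, hs1467 KO, hs1586 KO or hs1603 KO joins tag 3 with tag 4. Those lists covered 86.0 to 96.3 kb and 130.9 to 160.3 kb of the window, and lists of unlike covered length cannot reach an index of 1. The averages by genotype and by tag are thus not separate measures.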

How the data were processed

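One H3K27ac peak list per ChIP library was used, 18 in all, and the 18 input samples were not used here. The submitters' processing notes list MACS 1.4.2, Bowtie 0.12.8, cutadapt 1.1, bcl2fastq 2.17 and CASAVA, with mm9 as the build. Each list deposited by the authors holds peak positions and scores, from 40 to 3233, without read counts, so depth is unknown and no counting interval was computed. Whether the inputs served as control is not given in the sources used here. Coordinates are 1-based.

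Peaks of a list were merged, regions built from at least 2 libraries, and a region called by an overlap of 1 bp. The window's peaks, covered length and share of covered bases were compared by exact permutation tests over libraries (15 tests), and regions by Fisher's exact test over all regions, with Benjamini-Hochberg adjustment. Alternatives kept only peaks scoring 100 or more, or cut every list to its best 26550 peaks. Others were at least 50% of a region covered, regions of 1 library, tiles of 1000 bp and leaving out tag 3. The last were the replicate block and leaving out each replicate of the groups compared, for tiles of hs72 KO only. Calls against all 16 or 14 other libraries were added after seeing the data. Named regions were the 10 with the highest mean WT percentile, those called in all 18, the 5 widest, those separating hs72 KO from WT and lost tiles. Other regions given were chosen after their values were seen. The window and these rules were chosen with earlier results of these data known. The counting of lost regions was checked by removing peaks from the hs72 KO lists, and the permutation test on set values with a known shift. These checks cover the code and not the results. Python 3.11.15, numpy 2.4.6, pandas 2.3.3, scipy 1.17.1 and matplotlib 3.10.9 were used.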

Additional observations from a re-analysis of the deposited data

Results flagged for a closer look

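Each of the 18 sets of 4 libraries of mm1179 KO or WT was searched for a library far from the other 3, by the gap to its nearest neighbour over the range of the group. Chance singles out about 1 in 20 groups, and 3 were found. WT replicate 1 covered 11.614 kb of the 100 kb around Sall1, against 15.3 to 16.03 kb in the other 3 WT libraries. The mm1179 KO replicate 4 had a percentile of 45.344 in the region without a call in hs72 KO, against 51.3 to 52.4 in the other 3. WT replicate 3 had a percentile of 98.501 in the Sall1 domain, against 99.8 to 99.9 in the other 3. It is the library in which the domain is split into 2 peaks. In the other 3 the domain had the same score of 3100, which leaves their percentiles little room to differ. The rate of 1 in 20 therefore need not hold for this flag. The causes were not tested.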

How the results depend on the processing

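Of 198 alternatives to 21 results, 24 changed the sign of a difference, 13 moved a count by over 1.5 times and 152 did neither. The other 9 belong to the peak number in hs72 KO minus WT, whose difference of 0 has no direction, and 7 of them were above 0 and 2 below. No alternative gave a p under 0.05, which the hs72 KO comparisons could not reach. With a minimum score of 100, the difference of hs72 KO minus WT in window share became 0.0021 percentage points, and that of mm1179 KO minus WT became 2.75 peaks and 0.717 kb around the gene. With lists of equal length these were 0.0035 percentage points and 2.75 peaks, and hs72 KO minus the tag 2 libraries became 0.25 peaks, 0.0 percentage points of share and 0.92 kb in the desert.

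The counts of regions and tiles without a call in hs72 KO moved with the settings. A minimum score of 100 left 0 such regions, because WT replicate 1 scored 84.2 there, and 0 tiles. Lists of equal length left 0 tiles, with the region called in 14 libraries and in all 4 of WT, and regions of a single library gave 2. Tiles of 1000 bp gave 1. The causes of the other changes were not tested.

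In leaving out libraries, tiles were recounted without each hs72 KO library only. That gave 3 to 7 tiles without a call in hs72 KO and 0 to 9 in the opposite direction. Leaving out 1 of the compared libraries at a time gave 1 to 3 regions without a call in hs72 KO and 0 to 2 in the opposite direction. For hs72 KO minus WT it gave -6.5 to 6.5 peaks, -9.30 to 26.7 kb covered, -0.0129 to 0.0085 percentage points, -2.25 to -0.366 kb around the gene and -3.27 to 20.4 kb in the desert. For hs72 KO minus the tag 2 libraries the ranges were -7.25 to 5.75 peaks, -19.3 to 16.7 kb, -0.0116 to 0.0098 percentage points, -3.08 to -1.35 kb and -12.8 to 10.9 kb. For mm1179 KO minus WT they were -3.83 to -0.833 peaks, -0.841 to 10.7 kb, 0.001 to 0.0073 percentage points, -1.43 to 0.392 kb and 0.0612 to 9.95 kb.

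Replicate numbers did not pair the libraries. Same-numbered mm1179 KO and WT libraries had correlations of 0.0795 to 0.284, and 2 of 4 WT libraries correlated best with their own number. All pairs of mm1179 KO and WT libraries that share a tag had positive correlations, from 0.061 to 0.284. All pairs of unlike tags had negative ones, from -0.285 to -0.0566. With the replicate block, hs72 KO minus WT was 2.0 peaks and 14.4 kb of the window (exact permutation p = 1 and 0.5). That block sets the hs72 KO libraries, of tag 2, against WT replicates 1 and 2, of tag 1. Tag and genotype thus cannot be told apart in these 2 differences, and within tag 2 hs72 KO minus WT was 2.98 kb. The block reversed the sign of none of the other 9 differences. It can give no p below 0.5 with 2 pairs or 0.125 with 4, so it says nothing about calls. Depth is unknown, so a missing peak may be a peak below the calling threshold.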
